A study of Homo sapiens with 16 samples.

Results

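Contact maps of K562 cells digested with HindIII for 0.25 h were compared with maps of the same line digested for 12 h, at a resolution of 20 kb. The members were chosen by their labels: both replicates of each time from the second sequencing run, which gave 4 of the 16 samples of the series. The other second-run samples, digested for 1 h and 3 h with 2 replicates each, took no part in the contrast and served only to place domains, boundaries and compartment classes. K562 is an established human leukaemia line that carries a fusion of chromosomes 9 and 22. All groups shared the line, formaldehyde fixation, filling of the cut ends with biotin-marked nucleotides and ligation inside nuclei, and differed only in the labelled digestion time. The series gives as its purpose that short digestions should capture the most accessible boundaries. Nothing in the labels says whether the replicates came from separate cultures, so the spread between them may be technical.

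Hi-C joins DNA ends that lie close together in the nucleus, and HindIII sets where those ends can be. Along a chromosome, contacts are denser within domains than across the boundaries that separate them, and the corner of a domain on the map, where its ends meet, often carries an extra focus of contacts. Such corners and boundaries are known for CTCF and cohesin, which extrudes chromatin loops until CTCF stops it. Over longer distances chromatin of like activity gathers into compartments, so that active regions meet active regions and inactive regions meet inactive ones.

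The deposited signal was balanced: every bin was scaled so that all bins of a library had the same total. The 0.25 h libraries held 114338328 and 62777251 contacts for replicates 1 and 2, and the 12 h libraries held 176412222 and 153465906. Depth therefore moved with digestion time. The main aggregates below were also taken after thinning each library at random to an expected 30361835 contacts between different bins within 2 Mb, with all its other contacts thinned by the same share, so that only contacts within 2 Mb were brought to one number. At 1 Mb, a pair of windows on chromosomes 9 and 22 was among the 5 strongest contacts between chromosomes in all 8 second-run libraries, which is the fusion that marks K562. Its signal was 1.63 and 1.55 bin totals at 0.25 h, and 1.74 and 1.70 at 12 h. It was not the strongest. A pair on chromosomes 14 and 22 ranked first in all 8 libraries, at 4.73 and 5.51 at 0.25 h and 2.27 and 2.09 at 12 h. In both 0.25 h libraries a pair on chromosomes 21 and Y also ranked above it, at 2.25 and 2.57. With 2 libraries against 2, an exact two-sided permutation test cannot go below p = 0.333. Aggregates are therefore given for each library with no test, and single features were tested with limma across all features of their kind.

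The first comparison asked how near the 2 ends of a contact lay. The share of signal that stayed inside a 20 kb bin rose at 0.25 h to 8.41% from 4.28% of a bin's total. The share of the neighbouring bin at 20 kb also rose, and that of every separation from 40 kb to 2 Mb fell. All are shares of a fixed total, so a rise inside the bin by itself leaves less for every other separation. Shares of only the signal that left the bin are not given here. The share of a bin's signal that stayed inside the bin was 7.77% and 9.06% in the 0.25 h libraries and 4.31% and 4.24% in the 12 h libraries. The standard deviations behind those means were 0.914 and 0.0537 percentage points (n = 2 each). Both 0.25 h libraries lay above both 12 h libraries, and so they did on 23 of 23 chromosomes (background 100%). Here and below, background is the share of all chromosomes or features tested that gave the stated result, not a rate expected by chance.

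The bins directly beside a bin, 20 kb away, took 13.04% and 12.26% of its signal at 0.25 h and 11.86% and 11.46% at 12 h. The groups did not overlap, again on 23 of 23 chromosomes (background 100%). When each pair was counted once over the whole signal, instead of as a share of each bin, the 20 kb values were 12.1% and 11.2% against 11.3% and 10.9%, and the groups overlapped. At 40 kb the order of the shares turned, and the part of the larger share inside the bin in this was not tested. That separation held 5.06% and 4.80% at 0.25 h and 5.28% and 5.14% at 12 h, lower at 0.25 h without overlap on 21 of 23 chromosomes (background 91.3%).

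The step between 20 and 40 kb was thus steeper after the short digestion. Contacts per possible pair were 2.57 and 2.55 times as frequent at 20 kb as at 40 kb at 0.25 h, and 2.24 and 2.23 times at 12 h. Separations of 40 kb to 2 Mb together held 46.3% and 45.0% against 49.9% and 49.6%. Beyond 2 Mb on the same chromosome the groups overlapped, with 20.8% and 20.8% against 20.5% and 21.1%. These are also shares of a total that holds the signal inside the bin. The overlap therefore does not show that the signal leaving the bin was alike beyond 2 Mb. Within that range pairs 5 to under 20 Mb apart took 8.54% and 8.57% against 8.10% and 8.34%. Pairs at least 20 Mb apart took 4.87% and 4.94% against 5.49% and 5.65%, so the 0.25 h libraries were higher in the first class and lower in the second. The first class overlapped without balancing, at 8.34% and 8.24% against 8.07% and 8.32%, and with each pair counted once. Pairs 2 to under 5 Mb apart took 7.35% and 7.32% against 6.93% and 7.10%, higher at 0.25 h. They overlapped in the same alternatives.

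**Figure D1:**
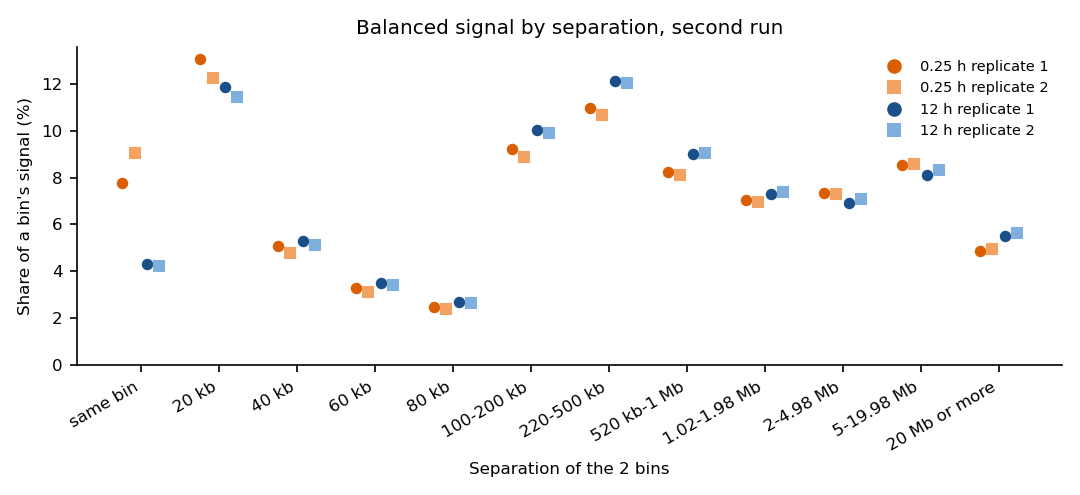
Share of a bin's balanced signal (%, y axis) by the separation of its partner (x axis), one point per library; orange is 0.25 h, blue is 12 h, circles are replicate 1 and squares replicate 2. The 0.25 h libraries lie above the 12 h libraries in the same bin (7.77% and 9.06% against 4.31% and 4.24%) and at 20 kb, and below them from 40 kb to 2 Mb.

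Domains were the intervals between neighbouring boundaries of the 1 h and 3 h maps. There were 5730 of them, with a median length of 380 kb and a range of 120 to 1980 kb. The interior of a domain was the signal of its bin pairs at least 40 kb apart, divided by the signal expected at the same separations on that chromosome. Both were summed over separations first, so each library's own decline of signal with separation sets the weight of each separation. Pooled values, also those by domain length, are thus not matched by separation between the times. The part of this in their differences was not tested. Pooled over all domains it overlapped between the times: 1.102 and 1.101 at 0.25 h and 1.102 and 1.102 at 12 h. Contacts between neighbouring domains were lower at 0.25 h, 0.885 and 0.888 against 0.894 and 0.895. The ratio of interiors to neighbours was 1.25 and 1.24 at 0.25 h and 1.23 and 1.23 at 12 h, without overlap.

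Taken by domain length, the order of the times changed, in pooled values that are not matched by separation. Among the 642 domains of 120 to 220 kb, the observed over expected value was 1.34 and 1.33 at 0.25 h and 1.33 and 1.31 at 12 h. Both 0.25 h libraries were above both 12 h libraries, by a margin that for one pair was only 1.327 against 1.325. Among the 2417 domains of 240 to 380 kb it was 1.1933 and 1.1876 against 1.1879 and 1.1807, and the groups overlapped. Among the 2181 domains of 400 to 780 kb it was 1.097 and 1.097 against 1.098 and 1.098, a difference of the means of -0.00082. Among the 490 domains of 800 kb and more it was 1.037 and 1.035 against 1.040 and 1.045, lower at 0.25 h in both libraries. The median log2 difference fell along the 4 length classes from 0.024 over 0.010 and 0.001 to -0.010, against 0.003 over all domains. Without balancing the order turned, with medians of -0.106, -0.039, -0.009 and -0.007, and the shortest domains were the lowest.

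Inside domains the pairs were also taken by separation. Pairs 20 kb apart stood at 1.009 and 1.010 against 1.006 and 1.007, and pairs 40 kb apart at 1.016 and 1.016 against 1.015 and 1.015. Pairs 200 kb apart stood at 1.162 and 1.156 against 1.154 and 1.152. At each of these separations the 0.25 h libraries were the higher pair. At 400 kb they overlapped with the 12 h libraries, at 1.30 and 1.28 against 1.29 and 1.28.

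No single domain interior passed limma at an adjusted p of 0.05 (0 of 5730, background 0%), while 697 had an unadjusted p under 0.05 (12.2%). Without 0.25 h replicate 1, where the spread rests on the 12 h pair alone, limma called 350. The libraries of the groups did not overlap in 1475 domains that were higher at 0.25 h (background 25.7%) and in 1275 that were lower (background 22.3%). The 5th to 95th percentiles of the log2 difference were -0.09 and 0.10. The standard deviation of the difference over domains was 0.067 between the times, 0.091 between the 0.25 h replicates and 0.052 between the 12 h replicates. The first is over means of 2 libraries and the others are over single libraries, so they are not on one footing.

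The 3 interiors with the smallest p are given as a description. At chr5:177200001-177500000 (build hg19), log2 observed over expected was -0.02 and -0.05 at 0.25 h and 0.21 and 0.25 at 12 h, a difference of -0.26 ± 0.024 (SE; adjusted p = 0.370, limma). That difference was -0.06 in 40 kb bins, which also bring in pairs 20 kb apart. It was -0.13 with pairs from 20 kb, -0.40 with pairs from 60 kb and -0.44 after thinning. At chr5:33980001-34180000 it was -0.12 and -0.13 against 0.04 and 0.07, and at chr1:54240001-54560000 it was -0.08 and -0.08 against 0.16 and 0.11. All 3 lay in class 1 chromatin, the compartment class that leans towards gene-rich chromosomes, which held 3051 of all 5730 domains. All 3 were lower at 0.25 h with no overlap. The first rested on 169 and 86 contacts at 0.25 h and 339 and 304 at 12 h, well under the median domain, which held 2170, 1104, 3907 and 3347. The second turned its direction without balancing, to 0.10 higher at 0.25 h (adjusted p = 0.201, limma), and was -0.01 with pairs from 20 kb and -0.06 after thinning, against -0.18. The third was -0.10 with pairs from 20 kb, against -0.22.

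By chromosome, chromosome 19, the gene-densest chromosome, had the largest difference in interiors. On the log2 scale it stood at 0.004 and -0.024 after 0.25 h, against 0.011 and 0.026 after 12 h, a difference of -0.029 without overlap. Interiors were lower without overlap on 6 of 23 chromosomes (background 26.1%) and higher on 3 (background 13%). The counts followed the setting, with 0 lower and 9 higher without balancing, and 19 lower and 0 higher in 40 kb bins. Neighbouring 40 kb bins also bring in pairs 20 kb apart, which the main measure leaves out. On chromosome 19 the median difference over its 78 domains was -0.037 on balanced signal and -0.131 without balancing, where its pooled interior no longer lay lower without overlap. These counts over chromosomes were added after the genome-wide results were seen. The chromosomes of a library share that library's own deviation, so they are not replicates, and the p-values of a limma fit over chromosomes, which was also tried, are not given.

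Corners were measured in 5 by 5 bins where the first and the last bins of a domain meet, for domains of at least 240 kb. They were enriched at both times and slightly more so at 0.25 h: pooled observed over expected was 1.663 and 1.646 at 0.25 h and 1.639 and 1.621 at 12 h. The means were 1.65 ± 0.0120 (SD, n = 2) and 1.63 ± 0.0125 (SD, n = 2). The groups did not overlap, with a gap between the nearest libraries smaller than the spread within either group. The innermost bin separated them by more, at 2.25 and 2.21 against 2.18 and 2.16. At 100 kb inside the corner the values overlapped, at 1.19 and 1.19 against 1.20 and 1.19, and so they did 100 kb outside it, at 0.818 and 0.7995 against 0.818 and 0.824.

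Corners of short domains followed this order and those of the longest domains were the other way round. In domains of 240 to 380 kb the corner stood at 1.61 and 1.60 against 1.58 and 1.56. In domains of 800 kb and more it stood at 2.007 and 1.976 against 2.033 and 2.008, lower at 0.25 h, with the nearest libraries almost level. Without balancing the median difference turned in domains of 240 to 380 kb, from 0.020 to -0.036, and over all corners, from 0.010 to -0.017, while the values pooled by chromosome were higher at 0.25 h on 19 of 23 chromosomes. Corners were strongest in class 1 domains, at 1.76 and 1.74 against 1.74 and 1.72, and weaker in class 2 domains, at 1.499 and 1.490 against 1.471 and 1.465. The class 1 median difference also turned without balancing, from 0.011 to -0.076. There limma called 103 of 2540 class 1 corners higher and 201 lower, against 4.32% and 4.93% over all corners. Corners of class 2 domains and of domains that mix the classes did not turn, with medians of 0.027 and 0.048 without balancing. Of 1514 class 2 corners 69 were called higher and 22 lower, and of 605 mixed ones 30 and 14. Corner values were higher at 0.25 h without overlap on 13 of 23 chromosomes (background 56.5%) and lower on chromosomes 16 and 21 (background 8.7%). After thinning, and in 40 kb bins, 0 chromosomes were lower, and 10 and 11 were higher.

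Of 5088 corners tested, 0 passed limma at an adjusted p of 0.05 (background 0%) and 314 had an unadjusted p under 0.05 (6.17%). Without 0.25 h replicate 1 it called 217. The libraries did not overlap in 1093 that were higher at 0.25 h (background 21.5%) and in 768 that were lower (background 15.1%). The corner with the smallest p belonged to the class 2 domain chr7:63720001-64080000. Its log2 value was 1.77 and 2.04 at 0.25 h and 0.69 and 0.75 at 12 h, a difference of 1.18 ± 0.12 (SE; adjusted p = 0.366, limma), on 44, 27, 86 and 67 contacts. Next came chr3:126420001-126760000, at 0.93 and 0.73 against 1.68 and 1.64, on 34, 16, 138 and 116 contacts. At 0.25 h those counts lay below the 5th percentile of corners, which was 41 and 21. Then came chr1:16880001-17220000, at 2.26 and 2.25 against 1.70 and 1.67, on 285, 160, 446 and 414 contacts. These corners were chosen for their small p and none passed. Without balancing, the first fell to a difference of 0.08 and the third to 0.26 from 0.57, and in 40 kb bins the second went from -0.83 to -0.21.

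**Figure D2:**
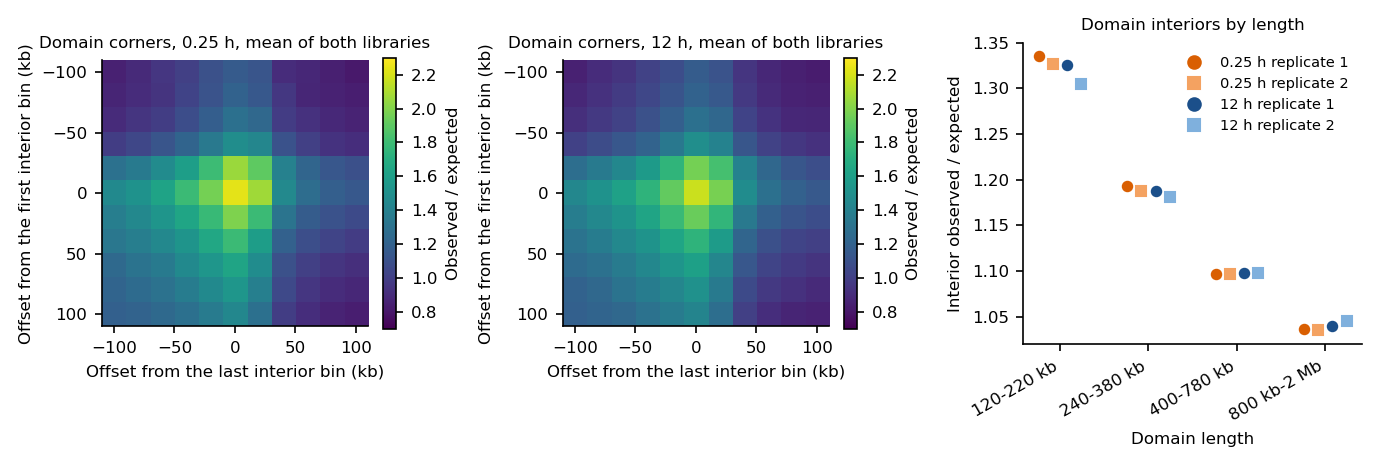
Left and middle, pooled observed over expected around domain corners (colour) by offset in kb from the first (y axis) and last (x axis) interior bin, as the mean of both 0.25 h libraries and of both 12 h libraries. Right, pooled interior observed over expected (y axis) by domain length (x axis), one point per library; the corner bin is brighter at 0.25 h (2.25 and 2.21 against 2.18 and 2.16), and interiors are higher at 0.25 h in the shortest class and lower in the longest.

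Boundaries, 5984 in number, were scored by insulation, the log2 of the signal crossing a bin between 200 kb on one side and 200 kb on the other, over the chromosome mean. A lower score means that fewer contacts cross. The mean score was -0.50 and -0.49 at 0.25 h and -0.48 and -0.47 at 12 h. The means were -0.494 ± 0.0043 (SD, n = 2) and -0.473 ± 0.0051 (SD, n = 2), so boundaries were slightly deeper after the short digestion, without overlap. Without balancing the difference was -0.076 instead of -0.021. On balanced signal boundaries were deeper on 21 of 23 chromosomes (background 91.3%), and the libraries overlapped on chromosomes 19 and 22. Boundaries were deeper on 15 chromosomes in 40 kb bins and on 23 without balancing.

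The difference was largest at the boundary itself. In squares of 100 kb to each side the scores were -0.56 and -0.56 against -0.52 and -0.52, and in squares of 400 kb they were -0.34 and -0.33 against -0.33 and -0.32, lower at 0.25 h without overlap but by less. At 40 kb beside the boundary the 200 kb scores were -0.26 and -0.26 against -0.26 and -0.26, and at 200 kb they were 0.15 and 0.15 against 0.15 and 0.15. The bins directly beside the boundary stood at -0.41 and -0.40 against -0.40 and -0.39, lower at 0.25 h without overlap, while the scores at 40, 100 and 200 kb overlapped. At 500 kb they were again lower, at -0.027 and -0.029 against -0.024 and -0.024.

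Bin pairs centred on a boundary show the crossing contacts directly. Pairs 40 kb apart, one bin to each side, stood at 0.714 and 0.719 of the expected signal at 0.25 h and at 0.738 and 0.737 at 12 h. Pairs 80 kb apart stood at 0.691 and 0.696 against 0.706 and 0.703. Both separations were lower at 0.25 h without overlap. By chromosome, pairs 40 to 80 kb apart were lower without overlap on 13 of 23 (background 56.5%) and higher on 0. The 40 kb pairs centred on the middle of a domain overlapped, at 1.077 and 1.066 against 1.071 and 1.067. Centre pairs 80 kb apart were higher at 0.25 h without overlap, at 1.148 and 1.156 against 1.142 and 1.138. The 40 kb pairs across a boundary lost part of this difference without balancing, at 0.7649 and 0.7757 against 0.7764 and 0.7784, still without overlap.

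Boundaries were also taken by the class of the chromatin around them, with no test between the classes. Where class 1 lay on both sides (3092 boundaries) the score was -0.44 and -0.44 at 0.25 h and -0.41 and -0.41 at 12 h. Where class 2 lay on both sides (1390 boundaries) it was -0.45 and -0.44 against -0.44 and -0.43. Where the class changed (982 boundaries) insulation was deepest, at -0.72 and -0.72 against -0.72 and -0.72, and the groups overlapped. The median difference was -0.029, -0.010 and 0.001 in these groups, against -0.017 over all boundaries. Without balancing the medians were -0.124, 0.023 and 0.022, so only that of class 2 turned its sign. Contacts 40 kb apart across the boundary did not keep this order. They were 0.728 and 0.732 against 0.754 and 0.750 with class 1 on both sides, 0.712 and 0.708 against 0.736 and 0.741 with class 2, and 0.689 and 0.691 against 0.702 and 0.706 at class changes. All 3 were lower at 0.25 h without overlap. By the strength of the boundary, in 3 equal parts from the weakest to the strongest, the median difference in insulation was -0.018, -0.020 and -0.015, and without balancing -0.042, -0.052 and -0.055.

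Boundary bins also differed from other bins in what they kept to themselves. The share of signal inside the bin was 6.90% and 7.87% at boundary bins at 0.25 h, against 8.13% and 9.50% in the bins beside them. At 12 h the boundary bins kept 3.87% and 3.78% and the bins beside them 4.39% and 4.30%. Boundary bins were thus the lower at both times. Contacts with other bins of the same chromosome, before balancing, moved with digestion time as well: boundary bins held 0.9498 and 0.9579 of the chromosome's mean at 0.25 h and 0.9625 and 0.9639 at 12 h. These contacts leave out those inside the bin and those between chromosomes, so they are not the total that balancing makes equal, and their part in the insulation difference was not tested.

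Single boundaries did not pass limma (0 of 5984 at an adjusted p of 0.05, background 0%), and 486 had an unadjusted p under 0.05 (8.12%). Without 0.25 h replicate 1 it called 107. The libraries did not overlap in 1559 boundaries that were lower at 0.25 h (background 26.1%) and in 830 that were higher (background 13.9%). The smallest p belonged to the bin chr5:175420001-175440000, with scores of -1.05 and -1.06 at 0.25 h and -0.46 and -0.64 at 12 h, a difference of -0.50 ± 0.080 (SE; adjusted p = 0.544, limma). Next came chrX:88540001-88560000, at -0.55 and -0.60 against -0.19 and -0.24, and chr12:3400001-3420000, at -0.52 and -0.44 against -0.14 and -0.05. In this order they rested on 152, 76, 309 and 263 contacts, on 105, 54, 207 and 176, and on 153, 84, 483 and 434. The expected signal of the median boundary square was 923, 476, 1633 and 1404 in the same libraries. All 3 were deeper at 0.25 h with no overlap, in bins chosen for their small p. Without balancing the differences were -0.22, -0.09 and -0.81, and with a window of 400 kb -0.21, -0.17 and -0.22. With a window of 100 kb the second was -0.13. When boundaries were called anew in each thinned library, the 0.25 h libraries gave 7030 and 7045 and the 12 h libraries 6609 and 6578. Thinning matched the sum of contacts within 2 Mb, not the contacts in the insulation squares. The part of this in the counts was not tested. Of the boundaries in the common set, 80.2% and 78.6% were found again within 1 bin at 0.25 h, and 78.7% and 79.0% at 12 h, which overlapped.

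**Figure D3:**
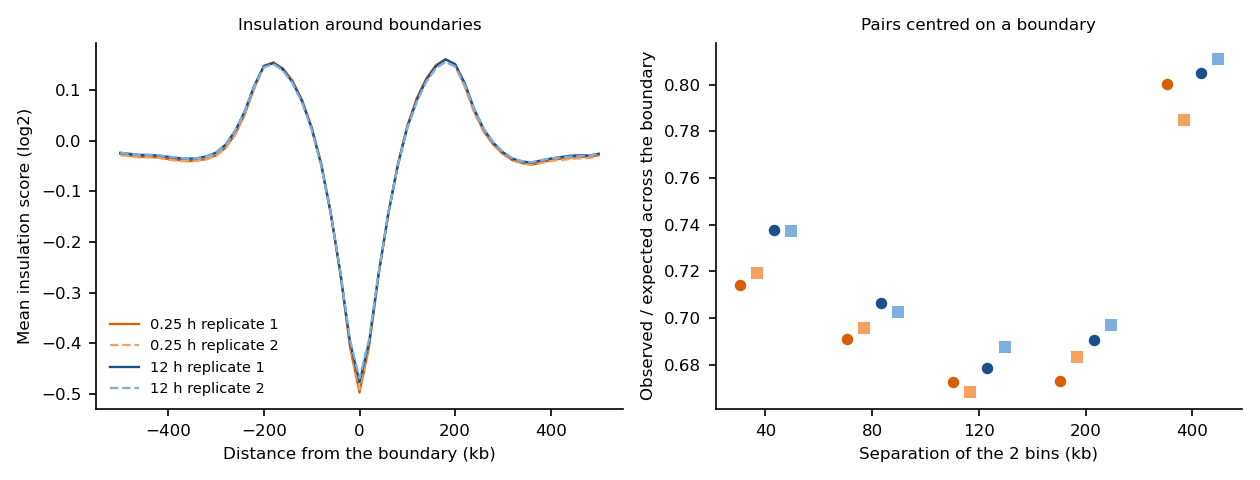
Left, mean insulation score (log2, y axis) by distance from the boundary (kb, x axis) for each library. Right, observed over expected signal (y axis) of bin pairs centred on a boundary by their separation (kb, x axis), one point per library, orange for 0.25 h and blue for 12 h; at 40 kb the 0.25 h libraries (0.714 and 0.719) lie below the 12 h libraries (0.738 and 0.737).

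Compartment classes came from the first eigenvector of the 1 h and 3 h maps at 40 kb. The sign was set so that class 1 leans towards chromosomes 19, 17 and 22, which are rich in genes, and class 2 towards 13, 18 and 4, which are poor in them. Over 20 chromosomes, 32249 bins of 40 kb were in class 1 and 29723 in class 2. Dividing the mean of the within-class values (observed over expected) by the value between classes gave the strength of compartments. It was lower at 0.25 h than at 12 h at most separations, by most at long ones. As for interiors, observed and expected signal were summed over the separations of a range first. Over a range, strength, the values by kind of pair and the preference of bins are thus not matched by separation between the times. The part of this in their differences was not tested.

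At 40 kb the classes were barely apart and the times did not differ beyond their spread: strength was 1.060 and 1.062 at 0.25 h and 1.060 and 1.062 at 12 h. At 20 kb it was 1.030 and 1.032 against 1.038 and 1.040, lower at 0.25 h. Pairs that joined class 1 with class 2 at 20 kb stood at 0.967 and 0.967 of the expected signal at 0.25 h and at 0.960 and 0.959 at 12 h. At 40 kb they stood at 0.940 and 0.938 against 0.939 and 0.939, and overlapped. Class 1 pairs at 40 kb stood at 1.063 and 1.057 against 1.061 and 1.051, and class 2 pairs at 0.929 and 0.935 against 0.931 and 0.943. Both kinds overlapped between the times.

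At 60 and 80 kb the groups still overlapped. At 100 to 200 kb strength was 1.183 and 1.180 at 0.25 h and 1.191 and 1.190 at 12 h. From 520 kb to 1 Mb strength was 1.42 and 1.40 at 0.25 h and 1.45 and 1.44 at 12 h. At 2 to under 5 Mb it was 1.44 and 1.43 against 1.59 and 1.57, and at 5 to under 20 Mb 1.52 and 1.51 against 1.72 and 1.70. In each of these classes the 12 h libraries were higher, without overlap.

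Over all pairs at least 2 Mb apart, strength was 1.59 and 1.58 at 0.25 h and 1.78 and 1.76 at 12 h. The means were 1.58 ± 0.0105 (SD, n = 2) and 1.77 ± 0.0141 (SD, n = 2). It was lower at 0.25 h on 20 of 20 chromosomes (background 100%). The difference of the means was -0.188 at full depth and -0.189 after thinning, which did not match the number of contacts beyond 2 Mb. Merging to 40 kb bins left the values at 1.59 and 1.57 against 1.78 and 1.76. Between the upper and lower 20% of the eigenvector alone the difference was much larger, as given in the closing section.

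The kinds of pair contributed unequally. Pairs between the classes, at least 2 Mb apart, stood at 0.763 and 0.767 of the expected signal at 0.25 h and at 0.710 and 0.715 at 12 h. Class 1 pairs stood at 1.110 and 1.114 against 1.162 and 1.173, and class 2 pairs at 1.316 and 1.304 against 1.365 and 1.343. Contacts between the classes were higher, and contacts within each class lower, at 0.25 h without overlap. For pairs at least 20 Mb apart, class 2 pairs overlapped, at 1.28 and 1.25 against 1.29 and 1.26, and class 1 pairs did not, at 1.37 and 1.38 against 1.44 and 1.45.

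**Figure D4:**
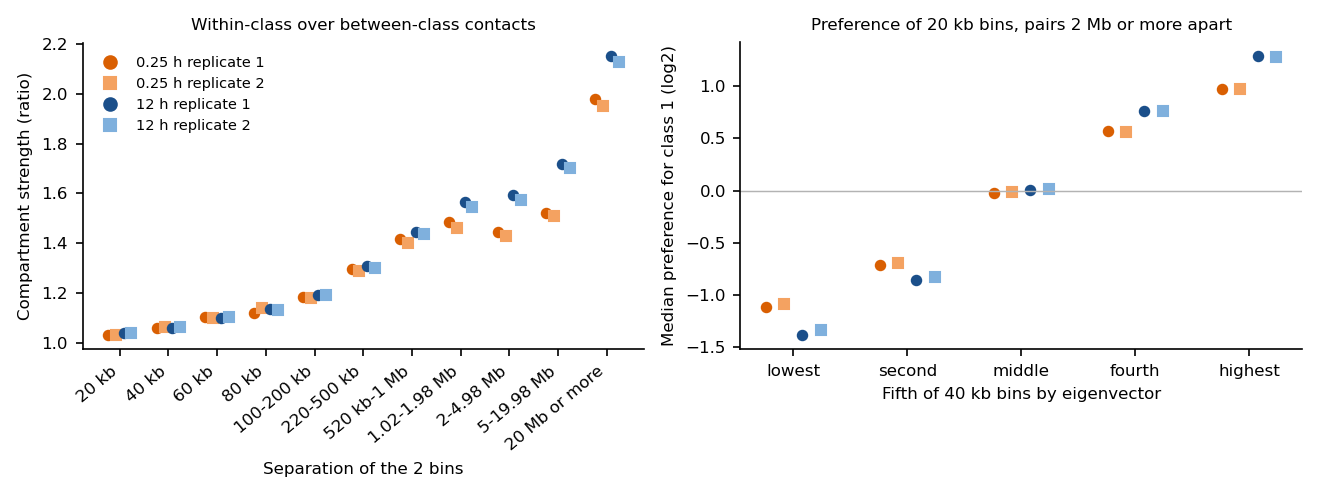
Left, compartment strength (ratio, y axis) by separation (x axis), one point per library; the times coincide at 40 kb (1.060 and 1.062 at both) and part at long range (1.52 and 1.51 against 1.72 and 1.70 at 5 to under 20 Mb). Right, median preference of 20 kb bins for class 1 (log2, y axis) by equal parts of the eigenvector, each 20% of bins (x axis); both ends lie nearer 0 at 0.25 h.

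Each 20 kb bin was also given a preference, the log2 observed over expected signal with class 1 minus that with class 2, over pairs at least 2 Mb apart. Bins of both classes lay nearer 0 at 0.25 h. In the lowest 20% of bins by the eigenvector, the most typical class 2 chromatin, the median preference was -1.12 and -1.09 at 0.25 h and -1.38 and -1.34 at 12 h. In the highest 20%, the most typical class 1 chromatin, it was 0.97 and 0.97 against 1.29 and 1.28. In the middle 20% it was -0.02 and -0.02 against 0.00 and 0.02. The difference of the means was 0.26 at the low end, -0.31 at the high end and -0.03 in the middle, and in none of these did the groups overlap.

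Counts of bins give the same picture. In the lowest 20%, 13297 of 24790 bins were higher at 0.25 h without overlap and 715 were lower. In the highest 20%, 13676 of 24790 bins were lower and 688 were higher. Over all 125928 bins tested, 28019 were higher (background 22.3%) and 32085 were lower (background 25.5%). Single bins still did not pass limma: 0 of 125928 had an adjusted p under 0.05 (background 0%) and 14870 an unadjusted p under 0.05 (11.8%). Without 0.25 h replicate 1 it called 4297.

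Short stretches of 1 class showed little of this, among stretches with the other class directly on both sides. Their preference was itself small at both times, which left little room for a difference. Class 1 bins in stretches of at most 200 kb had a median preference of 0.06 and 0.07 at 0.25 h and 0.07 and 0.08 at 12 h, in stretches of 240 to 960 kb 0.39 and 0.38 against 0.48 and 0.48, and in stretches of at least 1 Mb 0.66 and 0.66 against 0.86 and 0.86. The shortest stretches overlapped between the times and the others did not. Class 2 bins gave -0.14 and -0.14 against -0.15 and -0.13 in the shortest stretches, which overlapped, and -0.93 and -0.89 against -1.15 and -1.10 in the longest.

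Around a change of class the preference grew with distance. In long class 1 stretches the first 40 kb stood at 0.09 and 0.06 at 0.25 h and 0.13 and 0.12 at 12 h. At 200 to 240 kb from the change they stood at 0.62 and 0.62 against 0.77 and 0.78, and at 480 to 520 kb at 0.79 and 0.75 against 0.96 and 0.95. On the class 2 side the first 40 kb overlapped, at -0.16 and -0.17 against -0.18 and -0.17. At 480 to 520 kb it stood at -1.02 and -0.95 against -1.23 and -1.18, without overlap.

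**Figure D5:**
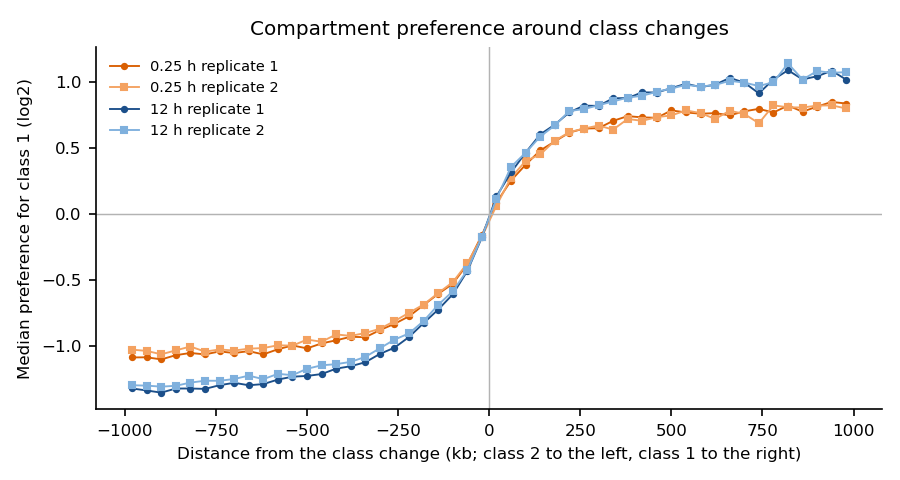
Median preference for class 1 (log2, y axis) of 20 kb bins by distance from a class change (kb, x axis; class 2 to the left and class 1 to the right), one line per library, in stretches of at least 1 Mb flanked by the other class. On the class 1 side the times are already apart in the first 40 kb (0.09 and 0.06 against 0.13 and 0.12). The absolute gap widens with distance as the preference itself grows. At 480 to 520 kb in class 1 the preference stands at 0.79 and 0.75 at 0.25 h against 0.96 and 0.95 at 12 h.

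The bins with the smallest p were thinly covered. The bin chr19:3340001-3360000, of class 1, had a preference of -1.46 and -1.57 at 0.25 h and 0.98 and 0.95 at 12 h, a difference of -2.48 ± 0.15 (SE; adjusted p = 0.411, limma). It held 6 and 3 contacts at 0.25 h and 24 and 24 at 12 h, where the median bin held 260, 136, 433 and 389. The class 1 bin chr17:1540001-1560000 stood at -1.12 and -1.46 against 1.20 and 1.23, on 18, 10, 26 and 24 contacts. The class 2 bin chrX:120000001-120020000 stood at -1.33 and -1.501 against 0.69 and 0.59, on 34, 24, 61 and 51 contacts. All 3 leaned to class 1 at 12 h and to class 2 at 0.25 h in both libraries of each time, on these few contacts. These bins were chosen for their small p in these same libraries, and none passed. In 40 kb bins the first was -1.45 and the second -1.20, with pairs from 1 Mb the first was -1.39 and the third -1.26, and without balancing the second was -1.58.

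Without balancing, when the recovered contacts themselves were used, limma called many features. It called 3282 of 5730 interiors (57.3%), 1328 of them higher at 0.25 h (23.2%) and 1954 lower (34.1%). It called 469 of 5072 corners (9.25%), 219 higher (4.32%) and 250 lower (4.93%). Of 5984 boundaries it called 2431 (40.6%), 772 higher (12.9%) and 1659 lower (27.7%). It called 0 of 125435 bins for compartment preference, where 18788 had an unadjusted p under 0.05. These calls fell by class. Of 3051 class 1 interiors 620 were called higher and 1382 lower, and of 1571 class 2 interiors 355 were called higher and 289 lower. Of 644 interiors of domains that mix the classes, 244 were called higher and 156 lower.

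Contacts with other bins of the same chromosome, which leave out those inside the bin, also moved with time in class 1 and class 2 bins. Class 1 bins held 0.905 and 0.925 of the chromosome's mean at 0.25 h and 0.927 and 0.931 at 12 h, and class 2 bins held 1.121 and 1.0997 against 1.096 and 1.091. Neither pair of groups overlapped. On balanced signal the median difference of class 1 interiors was 0.008 and that of class 2 interiors -0.006, while without balancing they were -0.083 and 0.009. The part of these contacts in the unbalanced calls was not tested.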

How the data were processed

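Per the labels, nuclei of K562 cells fixed with formaldehyde were digested with HindIII for 0.25, 1, 3 or 12 h. The submitters' processing notes name HiC-Pro 2.11.1, Bowtie2 2.3.4.1 and build hg19. The deposited signal was balanced by the authors in each file at 20 kb. Each value is a whole number of contacts times a factor for each of its bins, and dividing these out gave whole contacts within 0.01 for 100% of pairs in the 4 libraries compared. PCR copies are not told apart from separate molecules.

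The members and all choices here were made with earlier results of these data known. Bins present in all 8 second-run files were used (137198 of 151825 on chromosomes 1 to 22 and X). Boundaries were minima of the insulation score with a prominence of at least 0.2 on the summed 1 h and 3 h maps, with equal weight. Insulation squares needed 60% of their pairs, and domains of 120 kb to 2 Mb needed 80% of their bins and 3 pairs. Expected signal was the mean at each separation, smoothed at far separations. The eigenvector used observed over expected values capped at the 0.999 quantile, with columns merged to 200 kb. On chromosomes 9, 13 and 22 the first eigenvector was not the one that best followed contacts with gene-rich chromosomes, and they were left out of the class results after this was seen.

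Features were tested on the log2 scale, with a pseudocount of 0.5 for interiors, corners and preference and an expected signal of at least 10 for corners and preference, by limma 3.58.1 in R 4.3.3 (lmFit, eBayes with a variance trend, two-sided, Benjamini-Hochberg), 2 libraries against 2. The regions named were to be the 5 largest rises and 5 largest falls among called features and, where none was called, the 3 with the smallest p of each kind, which applied throughout. Recovery of contacts, boundary calls and the limma fit were tested on simulated data. No gene or sequence is named, because no genome or annotation of hg19 was used here, and the first-run files were not analysed here.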

Additional observations from a re-analysis of the deposited data

How the results depend on the processing

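Calls on balanced signal depended on the 0.25 h libraries. Leaving out 1 library at a time gave 0 to 350 called interiors, 0 to 217 corners, 0 to 107 boundaries and 0 to 4297 bins. The highest count each time came without 0.25 h replicate 1; without 0.25 h replicate 2 the counts were 4, 3, 0 and 9, and without either 12 h library 0. With 1 library left at 0.25 h, its spread is assumed to be that of the 12 h pair. Without balancing the counts were 3282 interiors, 469 corners and 2431 boundaries. Interiors with pairs from 20 kb gave 1 call, corners with precision weights 2, and bins 1 with all 8 libraries in the fit and 1 without a variance trend. The other alternatives gave 0 calls, the replicate block included (0 in each kind, with 655, 306, 452 and 13486 at an unadjusted p under 0.05). Same-numbered replicates did not deviate together (r of -0.029, -0.011, -0.018 and -0.001), so the numbers were not taken as pairs. Of the 12 regions named, 11 were called in at least 1 alternative. For most of them this was a fit with 1 library left at 0.25 h. All 12 were chosen for a small p in these same libraries, so such calls add no support. The interior at chr5:33980001-34180000 turned to 0.10 without balancing.

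Differences of means (0.25 h minus 12 h) moved by more than the replicate spread as follows. The share inside a bin moved from 4.14 to 6.40 percentage points without balancing and to 7.29 with each pair counted once, an alternative chosen after seeing the data. That count also moved the shares at 20 kb from 0.99 to 0.50 and at 40 kb from -0.28 to -0.44. Pooled interiors moved from -0.0006 to 0.0013 without balancing, -0.0033 in 40 kb bins, -0.0020 at the stricter prominence of 0.4 and -0.0028 with pairs from 20 kb. The 40 kb bins also bring in pairs 20 kb apart in interiors, so more than the bin size changes there. Corners moved from 0.025 to 0.055 in 3 by 3 bins. Insulation moved from -0.021 to -0.076 without balancing, -0.035 and -0.0097 with windows of 100 and 400 kb and -0.026 on the boundaries of all 8 libraries. Compartment strength moved from -0.029 to -0.050 below 2 Mb without balancing, and to -0.45 below 2 Mb and from -0.19 to -0.93 above it for the upper and lower 20% of the eigenvector. A share at 20 or 40 kb could not be had in 40 kb bins. The causes were not tested. Depth limits corners and bins: the median corner held 85 to 312 contacts and the 5th percentile 21 to 87, and the median bin 136 to 433 over 2 Mb and the 5th percentile 25 to 95.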
